A study of Mus musculus with 10 samples.

Results

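The dose series of mutant alleles took in all 10 arrays of the study (10 of 10), placed on a scale of 0, 1 or 2 mutant copies of Ptpn6 by their titles. RNA came from CD4+CD25+ T cells, in which regulatory T cells (Treg cells) are found, taken with an isolation kit from the combined lymph nodes of BALB/c mice aged 17 to 19 days. The cells were neither treated nor cultured, and RNA was amplified from 20 ng before 10 ug of amplified RNA was labelled for Affymetrix arrays. The groups were wild type (WT, 0 mutant alleles, 4 arrays), heterozygous (he, 1 mutant allele, 3 arrays) and homozygous (me, 2 mutant alleles, 3 arrays) for the SHP-1 knockout with the motheaten phenotype. The labels give the genotype of the mice, not of a cell type, so other cells of the he and me mice carry it too. The labels speak of biological replicates without saying whether each was a separate animal, so p-values measure the spread between arrays. In bulk RNA, fewer cells of a type and less RNA per cell cannot be told apart.

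Ptpn6 encodes SHP-1, a cytoplasmic tyrosine phosphatase that docks on receptors with inhibitory motifs and removes phosphate from kinases and adaptors of antigen and cytokine receptor signalling. Loss of both copies gives motheaten mice, which have a severe inflammatory and autoimmune disease, whereas mice with 1 intact copy lack that disease. In genetics a trait is called additive, or graded, when the heterozygote lies midway, and recessive when the heterozygote is like wild type. Here a gene's slope is the change in log2(intensity + 32) per mutant allele, and its he position is the share of the WT to me difference already reached in he. A position of 0 means he at the WT level, 0.5 the midpoint and 1 the me level. The departure is the he level minus the midpoint of WT and me.

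The arrays formed 2 sets of 5 by correlation, which cut across genotype and entered every fit as a term. Set 1 held WT 1, WT 2, he 1, me 1 and me 3, and set 2 the rest; correlations were 0.970 to 0.996 within and 0.854 to 0.944 between sets. The sets were seen in these values, and no label gives them, while me 3 lay between them (mean r with the other set 0.929). WT 2, WT 4, me 1 and me 2 were male and the others, all he among them, were female by Xist and Eif2s3y. Median deposited intensity lay between 148 and 188 per array. Treg and T cell genes stood well above the median probe set of 7.64 (log2), with Foxp3 at 11.11, Il2ra at 10.35 and Cd4 at 9.44.

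Ptpn6 itself came first. Its transcripts were lower with each mutant allele at both probe sets. At the brighter probe set WT arrays read 9.55, 9.63, 9.83 and 9.81 (log2), he arrays 9.30, 9.33 and 9.54, and me arrays 8.84, 9.08 and 9.05. Every he array lay below every WT array and above every me array. The slope was -0.34 ± 0.03 (log2 per allele, SE), and the he position was 0.50 with a 95% interval of 0.29 to 0.73. The dimmer probe set read 9.22, 9.08, 9.62 and 9.13 on the WT arrays, 8.75, 8.71 and 8.98 on the he arrays and 8.05, 8.31 and 8.17 on the me arrays. Its slope was -0.53 ± 0.06 and its he position 0.45 (0.22 to 0.70), again with no overlap between genotypes. These were the smallest slope p-values among the 45037 probe sets tested, with limma adjusted p = 0.0508 and 0.0545, so neither passed a threshold of 0.05. A 2-sided exact permutation of genotypes within array sets gave p = 0.00111 at the brighter probe set, the smallest that its 900 arrangements can give, and 0.00222 at the dimmer one. The he position stayed graded at both probe sets in all 20 other settings in which it was computed, 10 of them leaving out an array.

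**Figure D1:**
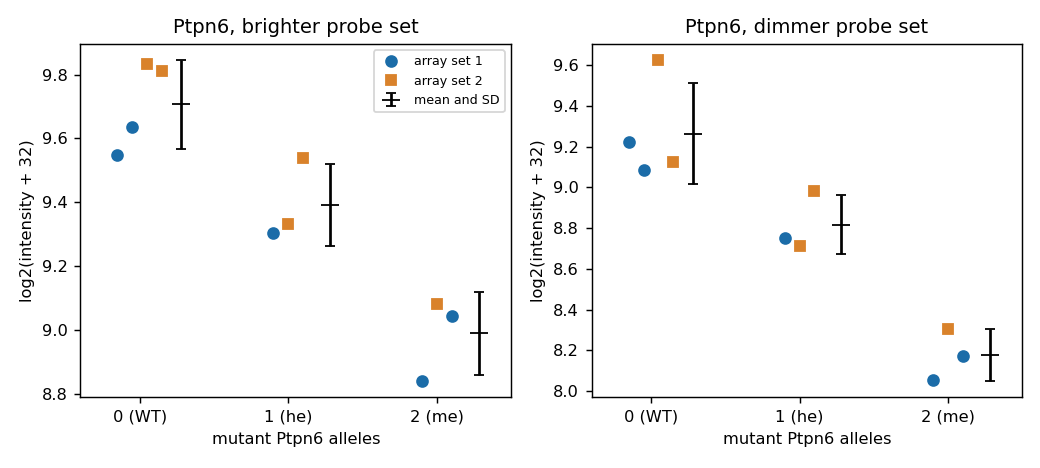
Levels of the Ptpn6 probe sets, log2(intensity + 32), against the number of mutant alleles; each point is 1 array, blue circles for set 1 and orange squares for set 2, and bars give the group mean and SD. At both probe sets the he arrays sit between all WT and all me arrays, with he positions of 0.50 and 0.45.

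Across the transcriptome 0 of 45037 probe sets passed an adjusted p of 0.05 for slope in limma (0%), while 2082 (4.62%) had an unadjusted p under 0.05. Departure from the midpoint gave 0 calls as well, with 1044 probe sets (2.32%) at an unadjusted p under 0.05. At an adjusted p under 0.1 the slope called 3 probe sets, both of Ptpn6 and that of Tesc. The genotypes stood fully apart, lowest to highest in the order me, he, WT, at 4 probe sets (0.00888%): both of Ptpn6 and those of 1110038B12Rik and Hormad1. The order WT, he, me held 0 probe sets. The 4 orders with he outermost held 1 to 3 each (0.00222%, 0.00222%, 0.00666% and 0.00444%). With the set term taken out of the values, me, he, WT held 34 (0.0755%) and WT, he, me 10 (0.0222%), against 10 to 26 in the other orders (0.0222%, 0.0377%, 0.0577% and 0.0533%). Genes were therefore described from a list of 218 candidates with an unadjusted slope p under 0.01, out of 11379 genes at or above the median level (1.92%), 75 of them higher (0.659%) and 143 lower (1.26%) with more mutant alleles. No member of this list other than Ptpn6 and Tesc had an adjusted p under 0.1, so the values that follow are candidates and are given as measured.

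Of the 218 candidates 131 (60.1%) were graded, with he positions of 0.25 to 0.75, 67 (30.7%) were recessive, below 0.25, and 20 (9.17%) lay above 0.75, with he like me. Noise alone centres these positions on 0.5, so the graded class is the largest by construction, whereas the recessive and like-me classes lie evenly about 0.5. The recessive class was the larger of these. The order of the classes depends on the selection: among candidates chosen by the F test of both genotype terms, 59 were recessive and 40 graded. Just inside and outside the limits lay Rgs16 at 0.245 and Gramd3 at 0.252, and Czib at 0.743 and Elac2 at 0.752. At the limit of the slope p lay Gpr18 (slope 0.19) just inside and Snx6 (-0.17) just outside. The median position was 0.416. Higher and lower genes were split unequally. Among the 75 higher genes 36 were graded, 36 recessive and 3 like me, and among the 143 lower genes 95 were graded, 31 recessive and 17 like me. The higher genes made up 34.4% of candidates, against 20.1% without normalisation and 16.0% with median centring. Departure from the midpoint had an unadjusted p under 0.05 in 22 of the 218 candidates (10.1%), against 2.82% of all genes at or above the median level. These shares are not like for like. Choosing candidates by slope p on the same arrays favours genes with little spread, which can raise their share of small departure p-values. In 21 of the 22 the he level lay toward WT.

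**Figure D2:**
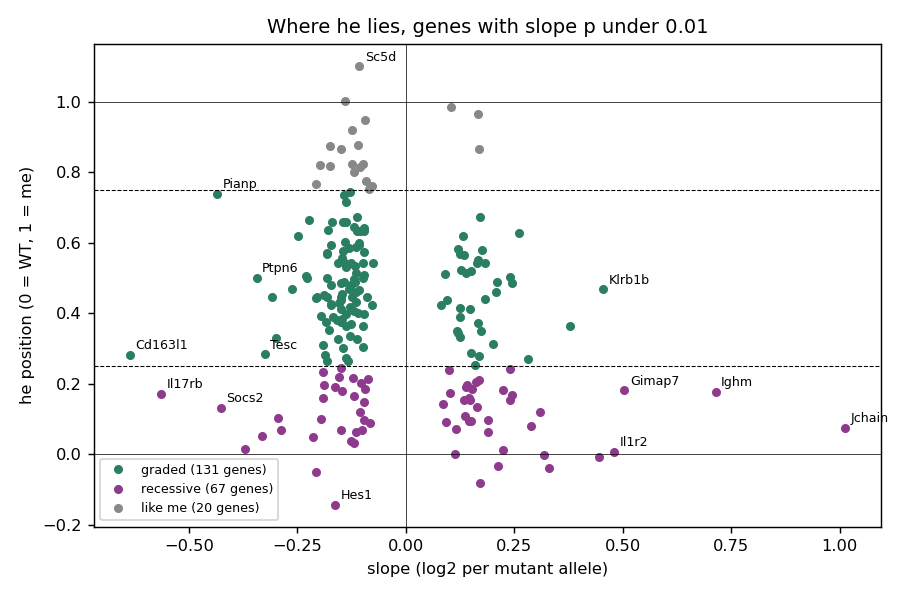
The he position of the 218 candidate genes against their slope (log2 per mutant allele), coloured by class; dashed lines mark the class limits of 0.25 and 0.75. Genes with the steepest positive slopes, Jchain, Ighm and Gimap7, lie near or below 0.18, while Ptpn6 lies at 0.50. Jchain passed the level filter only through its me arrays, with WT and he below the median level.

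Over all probe sets 2.13% differed between he and WT at an unadjusted p under 0.05, 3.21% between me and he and 4.31% between me and WT. Where he lay between and stood apart from both WT and me at that level, the pattern is called firmly graded. It held for 7 genes: Ptpn6, Tesc, Dkc1, Kpnb1, 1110038B12Rik, Klrb1b and Clec2i. Tesc encodes tescalcin, a calcium-binding protein. Its WT arrays read 11.49, 11.63, 11.27 and 11.17 (log2), he arrays 11.38, 11.01 and 11.04, and me arrays 10.82, 10.61 and 10.89. The me arrays lay below all the others, and he overlapped WT. Its slope was -0.33 ± 0.04 (adjusted p = 0.0545 in limma) at a he position of 0.28 (0.11 to 0.45), so the he level was nearer WT than the midpoint by 0.14 (unadjusted p = 0.0183). Its dimmer probe set had he at the WT level or above: the slope was -0.15 ± 0.05, he and me differed from WT by 0.05 and -0.32, and the position was -0.15. The departure there had an unadjusted limma p of 0.0055. The graded label of Tesc therefore rests on its brighter probe set alone.

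Klrb1b, a C-type lectin-like receptor with an inhibitory motif that recruits SHP-1, was higher with each mutant allele within both array sets. In set 1 WT arrays read 8.28 and 8.24 (log2), he arrays 8.54, and me arrays 9.01 and 8.76. In set 2 WT arrays read 9.01 and 9.12, he 9.83 and 9.45 and me 10.42. Within each set the genotypes stood apart, and over all arrays they overlapped. The slope was 0.45 ± 0.07 and the he position 0.47 (0.10 to 0.86), which became 0.80 with me 3 counted in set 2. The 4 other Klrb1b probe sets also had slopes above 0, but their he positions were 0.25, 0.19, 0.26 and 0.014, nearer WT, so the graded label rests on the brightest probe set. Clec2i, a ligand-type C-type lectin encoded near Klrb1b in the natural killer gene complex, had a slope of 0.21 ± 0.04 at a position of 0.49 (0.03 to 1.00).

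Dkc1, the pseudouridine synthase of ribosomal RNA modification and telomerase, read 10.23, 10.30, 10.21 and 10.23 (log2) on the WT arrays, 10.12, 10.08 and 9.98 on the he arrays and 10.03, 9.75 and 9.89 on the me arrays. All WT arrays lay above all others, and he and me overlapped. Its slope was -0.18 ± 0.03 at a position of 0.45 (0.10 to 0.80). Kpnb1, the importin that carries proteins into the nucleus, had the same slope, -0.18 ± 0.03, at a position of 0.50 (0.08 to 0.96). Further graded genes with lower levels were Cops7a, a subunit of the COP9 signalosome (slope -0.12 ± 0.02), and Psmc4, an ATPase of the proteasome (-0.16 ± 0.03). Ncbp2, part of the nuclear cap-binding complex, gave -0.12 ± 0.02. Graded genes with higher levels included Oas1a, an antiviral enzyme induced by interferon (0.38 ± 0.07), and Gpr183, a receptor that guides lymphocytes in lymphoid tissue (0.28 ± 0.06). The Oas1a position moved from 0.36 to 1.07 with the cre hybridisation control as a covariate, and that of Gpr183 stayed graded in 11 of 20 settings.

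Departure toward WT at an unadjusted p under 0.05, with he nearer WT, marked 21 genes. Tesc is one of them and meets both rules at its brightest probe set. In the other 20, he at the brightest probe set was not also apart from WT at that level. These 20 are called firmly recessive, 11 higher and 9 lower in me. They are Socs2, Il17rb, Stab2, Chdh, Cmtm6, Mcm4, Larp7, Il6ra and Hes1 on the lower side, and Gimap7, Fkbp5, Jchain, Il1r2, Casp4, Hmgn3, Bhlhe40, Jade2, Igkv8-30, Ly86 and Adam19 on the higher side. Jchain passed the level filter only through me, since its WT and he means of 7.08 and 7.13 (log2) lay below the median of 7.64. Socs2, a suppressor of cytokine signalling that is itself induced by cytokines through STAT5, read 10.14 and 10.17 (log2) on the WT arrays, 9.96 on the he arrays and 9.38 and 9.07 on the me arrays within set 1. In set 2 WT arrays read 9.26 and 9.17, he 9.06 and 9.23 and me 8.37. Within each set the me arrays were lowest and he lay close to WT. The he position was 0.13 (-0.08 to 0.32), and he exceeded the midpoint by 0.33 (unadjusted p = 0.0017). The next brightest Socs2 probe set had a position of 0.20 (0.02 to 0.36), an interval that leaves out the WT level. There he differed from WT by -0.16 ± 0.06 and me by -0.81 ± 0.06, and he exceeded the midpoint by 0.25 ± 0.06. He thus stood apart from WT as well and met both rules there, as Tesc does. The firmly recessive label of Socs2 therefore rests on its brightest probe set, though he was nearer WT at both.

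When me was set against WT and he together, in place of the 0, 1, 2 scale, limma called 2 probe sets, both of Socs2. They fell by 0.84 ± 0.08 and 0.75 ± 0.07 (log2, SE), each with an adjusted p of 0.0292. The opposite coding, WT against he and me together, called 0 of 45037. It had 10 probe sets at an unadjusted p under 0.001, where the recessive coding had 83 and the 0, 1, 2 coding 48. The Socs2 calls were lost without the array set term (adjusted p = 1.00), with me 3 counted in set 2 (0.679), with the Gapdh ratio (0.676) or the cre control (0.286 and 0.225) as a covariate, and with no normalisation (0.466 and 0.246) or median centring (0.428 and 0.0789). Both were also lost on leaving out WT 1 (0.114), WT 2 (0.0870), WT 3 (0.0626), he 1 (0.0634), he 3 (0.0600 and 0.0624), me 2 (0.205) or me 3 (0.0863 and 0.114). The me minus rest difference itself was -0.90 and -0.80 with no normalisation, -0.93 and -0.83 with median centring, and -0.88 to -0.70 on leaving out those arrays. It was smaller without the set term (-0.63 and -0.56), with me 3 in set 2 (-0.55 and -0.50) and, at the brighter probe set, with the cre control (-0.59).

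Cytokine receptors were among the firmly recessive genes in both directions. Il17rb, a subunit of the interleukin 25 receptor, read 9.97, 9.98, 9.53 and 9.72 (log2) on the WT arrays, 9.76, 9.22 and 9.70 on the he arrays and 8.91, 8.67 and 8.42 on the me arrays. All me arrays lay below all others, and he overlapped WT. The he position was 0.17 (-0.14 to 0.44). Il1r2, the decoy receptor for interleukin 1, ran the other way: WT arrays read 8.93, 9.10, 9.31 and 9.91, he 9.10, 9.43 and 9.70 and me 9.92, 10.57 and 10.24. Its he position was 0.01 (-0.38 to 0.30). Il6ra, the interleukin 6 receptor chain, was lower in me, with a me minus WT difference of -0.79 ± 0.17 and a he minus WT difference of -0.01 ± 0.17. Its other probe set was not lower in me, with differences of 0.05 in me and 0.25 in he.

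Transcription regulators and other genes had he near WT as well. Bhlhe40, a basic helix-loop-helix factor of activated T cells, was higher in me than in WT by 0.71 ± 0.11 and differed in he by -0.03 ± 0.11. Hes1, a repressor downstream of Notch, differed by -0.35 ± 0.06 in me and by 0.05 ± 0.06 in he. Casp4, an inflammatory caspase, differed by 0.46 ± 0.06 and -0.01 ± 0.06, and Fkbp5, a glucocorticoid-induced co-chaperone, by 0.40 ± 0.06 and 0.04 ± 0.06. Hmgn3, a nucleosome-binding protein, differed by 0.68 ± 0.11 in me and by 0.00 ± 0.11 in he, though WT 4 stood at 9.64 against 9.11 to 9.13 in the other WT arrays. Gimap7, a GTPase of lymphocytes, lay between 8.95 and 9.61 (log2) on the WT arrays, between 8.93 and 9.59 on the he arrays and between 10.03 and 10.70 on the me arrays. The me arrays were all highest, and the he position was 0.18 (-0.15 to 0.46). The other Gimap7 probe set, below the median level, had a slope of 0.13 ± 0.03 at a graded position of 0.60. The recessive label of Gimap7 therefore rests on its brighter probe set.

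Of the 20 genes with he like me 17 were lower, and 1 of the 20 departed from the midpoint at an unadjusted p under 0.05. Tomm70a, a receptor of mitochondrial protein import, read 10.69, 10.77, 10.48 and 10.56 (log2) on the WT arrays, 10.50, 10.29 and 10.23 on the he arrays and 10.41, 10.31 and 10.39 on the me arrays. It differed from WT by -0.25 ± 0.05 in he and -0.29 ± 0.05 in me, at a position of 0.87 (0.50 to 1.41). Dhodh, an enzyme of pyrimidine synthesis, differed by -0.19 ± 0.06 and -0.23 ± 0.06, at 0.80 (0.26 to 1.76). Gpr146, an orphan receptor, was higher by 0.28 ± 0.07 and 0.32 ± 0.07, at 0.86 (0.40 to 1.64). Each of these 3 intervals includes the midpoint. Sc5d, a sterol desaturase, was the candidate whose he level departed from the midpoint toward me (unadjusted p = 0.0365), and its slope of -0.11 became 4.6e-04 with me 3 counted in set 2.

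Agreement between probe sets was limited. Of 8 other probe sets of firmly graded genes at or above the median level, 8 had the same slope sign and 6 of these an unadjusted p under 0.05, 4 with graded and 2 with recessive positions. Of 7 such probe sets of firmly recessive genes, 5 had the same sign and 2 an unadjusted p under 0.05, both recessive.

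**Figure D3:**
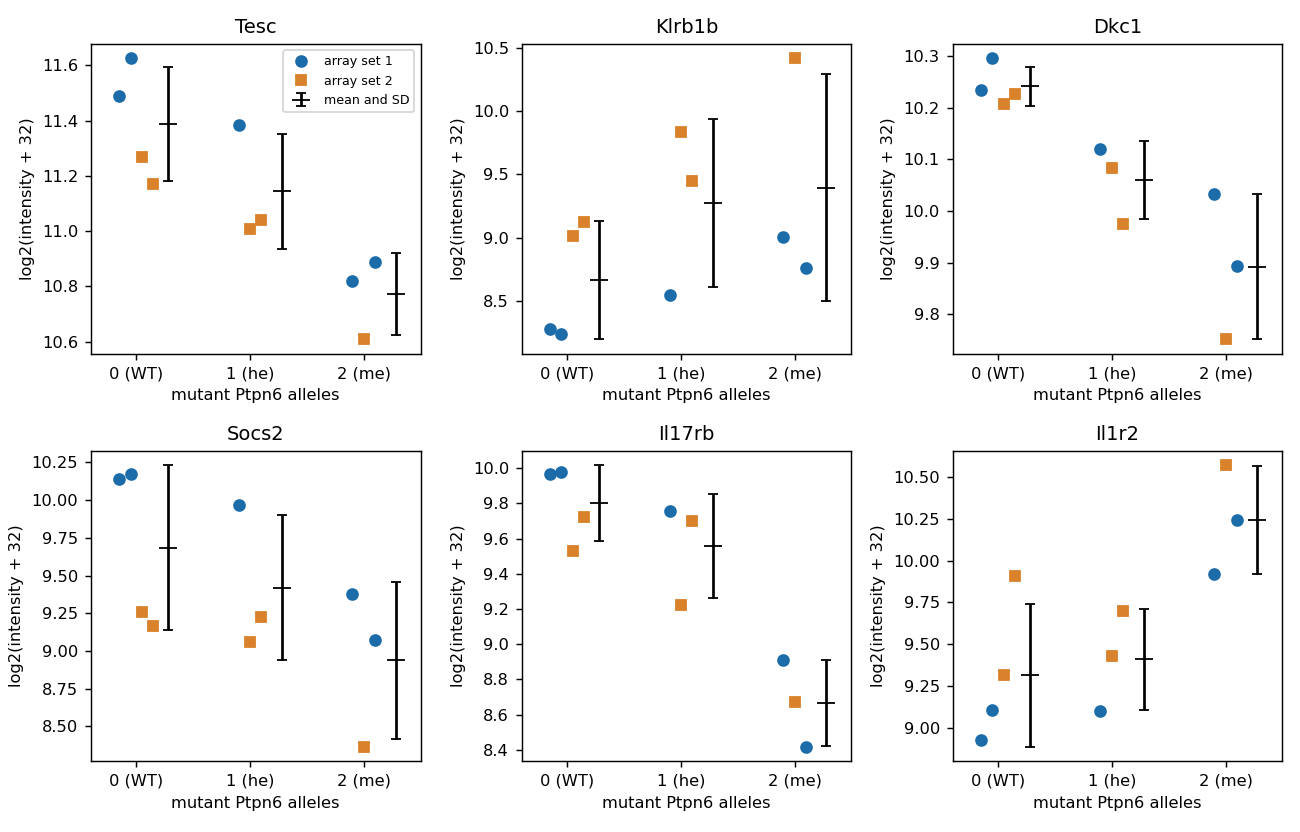
Levels, log2(intensity + 32), of Tesc, Klrb1b and Dkc1 (upper row), graded at the probe set shown, and the recessive genes Socs2, Il17rb and Il1r2 (lower row) against mutant alleles; points are arrays by set, and bars give the group mean and SD. In Il17rb every me array, at 8.42 to 8.91, lies below every he array.

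**Figure D4:**
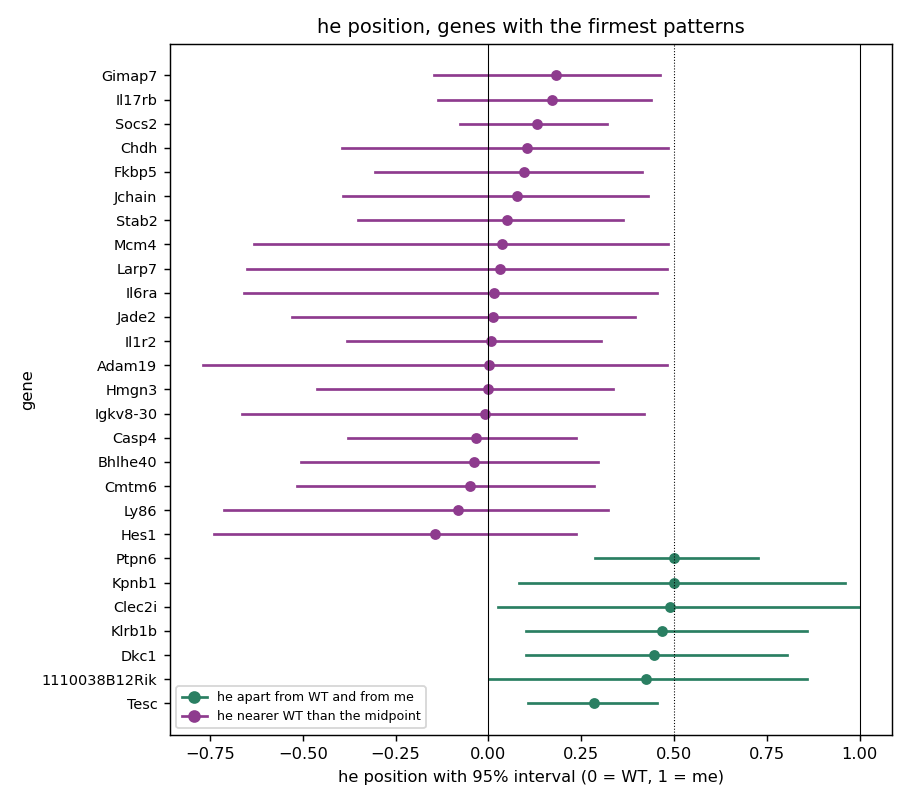
The he position of the 7 firmly graded and 20 firmly recessive genes, with 95% intervals from the fit with array set as a term; lines at 0 and 1 are the WT and me levels and the dotted line the midpoint. The intervals are wide; that of Ptpn6 spans 0.29 to 0.73 and that of Socs2 spans -0.08 to 0.32.

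Promoter windows of 250 bases before the start were available for all 7 firmly graded and 13 of the 20 firmly recessive genes (RefSeq, GRCm38.p6). Those below are shown because their genes carry the patterns, and Il17rb and Chdh because they lie back to back. Capitals mark matches, on both strands since each motif is its own reverse complement, to CANNTG, the E-box core that holds CACGTG, and to TTCNNNGAA, the STAT motif. Windows run 5' to 3' on the gene's strand, and their coordinates refer to GRCm38.p6. Ptpn6 is chr6:124738710-124738959 (minus), Tesc chr5:118027493-118027742 (plus), Il1r2 chr1:40085843-40086092 (plus), Il17rb chr14:30008897-30009146 (minus) and Chdh chr14:30008750-30008999 (plus).
Ptpn6: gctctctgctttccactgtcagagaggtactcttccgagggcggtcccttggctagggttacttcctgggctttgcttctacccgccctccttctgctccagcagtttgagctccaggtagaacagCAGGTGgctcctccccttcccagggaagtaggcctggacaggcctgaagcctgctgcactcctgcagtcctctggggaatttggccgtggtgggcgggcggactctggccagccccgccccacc
Tesc: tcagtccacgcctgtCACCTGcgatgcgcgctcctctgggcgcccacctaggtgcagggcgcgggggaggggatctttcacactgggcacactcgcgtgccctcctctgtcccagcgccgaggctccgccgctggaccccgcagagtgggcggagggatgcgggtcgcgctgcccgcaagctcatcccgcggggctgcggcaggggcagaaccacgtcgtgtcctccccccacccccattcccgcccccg
Il1r2: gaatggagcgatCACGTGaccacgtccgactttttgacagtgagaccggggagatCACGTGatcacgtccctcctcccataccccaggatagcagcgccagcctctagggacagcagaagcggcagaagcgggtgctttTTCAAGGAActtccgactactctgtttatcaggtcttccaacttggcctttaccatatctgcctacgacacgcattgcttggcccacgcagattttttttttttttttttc
Il17rb: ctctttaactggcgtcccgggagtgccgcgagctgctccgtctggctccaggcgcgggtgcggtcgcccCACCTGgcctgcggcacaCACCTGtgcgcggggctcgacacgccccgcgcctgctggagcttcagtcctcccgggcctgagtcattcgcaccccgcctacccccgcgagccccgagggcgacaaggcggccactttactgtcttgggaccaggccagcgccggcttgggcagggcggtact
Chdh: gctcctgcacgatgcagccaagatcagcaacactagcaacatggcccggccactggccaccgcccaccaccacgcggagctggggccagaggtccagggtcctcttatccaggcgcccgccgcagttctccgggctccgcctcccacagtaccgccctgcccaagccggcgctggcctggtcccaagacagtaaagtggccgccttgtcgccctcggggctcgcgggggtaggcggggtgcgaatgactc

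The Il17rb and Chdh windows share 103 bases on opposite strands, and their starts face away from each other. Chdh, which encodes the choline dehydrogenase of mitochondria, was lower in me by 0.62 ± 0.11 and differed by -0.06 ± 0.11 in he, at a position of 0.10 (-0.40 to 0.48), beside 0.17 for Il17rb. The pair was picked out after its values were seen. The Il1r2 window holds CACGTG 2 times and TTCNNNGAA 1 time. CACGTG was found in 4 of 18 windows of firmly recessive genes and 0 of 10 of firmly graded genes, against 6.021% of all 32851 promoter windows, where several windows can belong to 1 gene. TTCNNNGAA was in 2 of 18 and 0 of 10, against 7.02%, and CANNTG in 14 of 18 and 7 of 10, against 66.22%. A match describes letters only.

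Gene lists were read by their counts and medians. Among all genes 2.12% were higher and 3.33% lower at an unadjusted slope p under 0.05, and the median slope was -9.7e-04. Of these 18193 genes 8928 had a slope above 0 and 9265 a slope below 0. The list genes were chosen with earlier results in view, so each count is a description. The heat shock and chaperone list, whose members fold and protect proteins, had 18 of 24 measured members with a slope below 0, and 9 of 24 lower at p under 0.05. Its median slope was -0.057, and -0.13 with no normalisation and -0.14 with median centring, so its size depends on the scaling. Hspa9, Hspe1, Cct3 and Hspa8 lay at positions of 0.45, 0.44, 0.50 and 0.49, whereas Hspa1a lay at 0.28. A dimmer Hspa8 probe set, with a slope of -0.21 ± 0.04, lay nearer WT at 0.22. Nuclear transport genes had 24 of 34 below 0 and 6 of 34 lower at p under 0.05, with a median slope of -0.029, against -0.077 and -0.086 under those scalings. Among them Ipo4, an importin, had a slope of -0.25 ± 0.06 at a position of 0.62.

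GIMAP GTPases, which regulate lymphocyte survival, were higher in 8 of 8 members. The list's median he minus WT difference was 0.11, against 0.45 for me minus WT, and 3 of 8 were higher at p under 0.05. The interferon response list gave 23 of 29 above 0, but 1 of 29 at p under 0.05 (Oas1a), and its he minus WT median, 0.22, was no smaller than its me minus WT median, 0.19. Ifit1, an interferon-induced antiviral protein, had he and me differences of 1.17 and 0.76 from WT. Receptors with inhibitory motifs, the class that docks SHP-1, had 20 of 26 above 0 and 4 of 26 at p under 0.05. These 4 were Klrb1b, Cd5, Siglecg and Klrg1, with positions of 0.47, 0.10, 0.41 and 0.48. Klrb1b and Klrg1 lie on chromosome 6, as Ptpn6 does, and the part of that place was not tested. The Cd5 slope reversed with the cre control as a covariate. Other protein tyrosine phosphatases gave no such count: of 27 measured members 1 had an unadjusted p under 0.05, and it was Ptpn6.

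Effector and activation genes had 24 of 32 slopes below 0, with 6 lower and 3 higher at p under 0.05. Their members included Il17rb and Il4 on the lower side and Il1r2, Bhlhe40 and Gzmb on the higher side. The Treg identity list had 2 higher and 1 lower of 26, Klrg1 and Ctla4 against Socs2. Foxp3, the lineage factor of Treg cells, had a slope of 0.10 ± 0.05 (unadjusted p = 0.0763), which turned to -0.0011 with me 3 counted in set 2 and -0.064 with the cre control as a covariate. JAK, STAT and SOCS genes had 1 higher and 2 lower of 28, Stat4 against Socs2 and Il6ra. Cell cycle, naive T cell and Notch genes had at most 1 member with an unadjusted p under 0.05 in either direction.

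**Figure D5:**
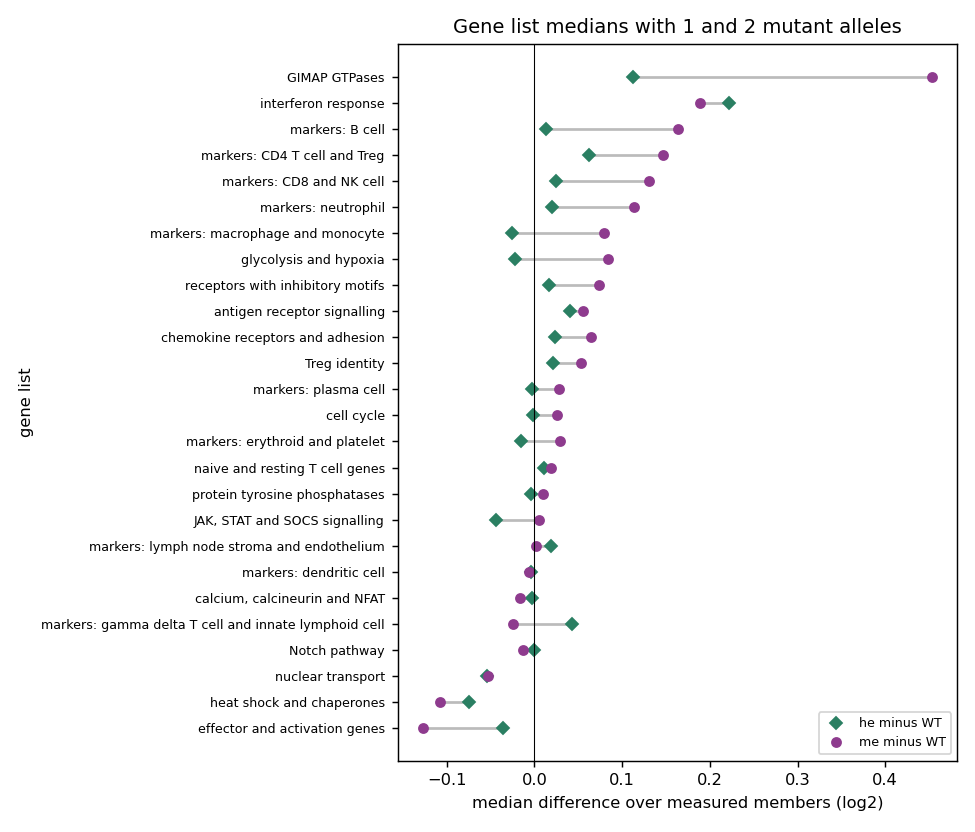
Median he minus WT difference (diamonds) and me minus WT difference (circles) over the measured members of each gene list, in log2 with array set as a term. Both share the WT arrays; the GIMAP list lies at 0.11 and 0.45 and the interferon list at 0.22 and 0.19.

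The summed B cell marker level was higher in me, through Ighm. The 18 measured B cell markers summed to 6140 to 7927 (linear intensity) in WT, 6175 to 8729 in he and 9130 to 16900 in me, without overlap of me with the rest after quantile normalisation. Without Ighm the other 17 summed to 3425 to 5582 in WT, 3321 to 6058 in he and 3801 to 5671 in me, and the genotypes overlapped. With median centring the sums of all 18 overlapped too. Ighm, the IgM heavy chain, read 11.42, 11.42, 10.65 and 11.21 on the WT arrays, 11.49, 11.07 and 11.40 on the he arrays and 13.01, 11.77 and 13.56 on the me arrays (log2). The me arrays were the highest, and he overlapped WT. Of the 18 markers 12 had slopes above 0 and 3 were higher at an unadjusted p under 0.05, and the list's median slope was 0.083. At or above the level of the median probe set stood 13 of the 18, whereas Cd79a, a defining B cell marker, stood below it at 7.31. Jchain, the joining chain of polymeric antibodies, read 7.06, 7.10, 7.11 and 7.03 on the WT arrays, 7.21, 7.16 and 7.04 on the he arrays and 9.82, 7.96 and 10.14 on the me arrays. At p under 0.05, 6 of 22 macrophage and 4 of 16 neutrophil markers were higher. So were 3 of 13 plasma cell and 4 of 18 CD8 and NK cell markers. Over all arrays the summed levels of these 4 lists overlapped between genotypes. Within each array set the macrophage sums stood apart in the order WT, he, me. In set 1 they were 6870 and 7344, 7376, and 8040 and 8248, and in set 2 8795 and 8799, 9471 and 9678, and 11658. The macrophage list's median he minus WT difference was -0.025, against 0.079 for me minus WT, so the median marker did not share the he step of the sum. The sums of these 4 lists were taken after quantile normalisation only. The neutrophil sums were highest in me within each set. Plasma cell sums in set 2 and CD8 and NK cell sums in both sets overlapped. The 10 CD4 T cell and Treg markers summed to 17722 to 19472 in WT, 19661 to 20570 in he and 19835 to 21704 in me after quantile normalisation, where WT lay below both. With no normalisation or median centring these sums overlapped between all genotypes, and the list's median slope turned from 0.071 to -0.026 and -0.034. Cd163l1, a marker of gamma delta T cells, had a slope of -0.64 ± 0.14 at a position of 0.28. Its list, which also covers innate lymphoid markers, had 12 measured members, 5 with slopes above 0 and 7 below. At p under 0.05, 2 of the 12 were lower and 0 higher, and the list's median slope was -0.010.

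Some array measures also had he near WT. The Gapdh 3' to 5' ratio was higher in me than WT by 2.71 and in he by 0.26, whereas the actin 3' to 5' ratio went the other way, with differences of -2.00 and -0.21. The cre control differed by -4729 and -583 (intensity). With these as covariates the recessive class held 8 of 56 candidates (Gapdh ratio) and 14 of 142 (cre). Beyond these fits their part in the recessive genes was not tested, nor was that of B cell or macrophage RNA. Jchain, Ly86, Stab2 and Il17rb also stand in the marker lists of plasma cells, macrophages, endothelium and innate lymphoid cells.

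Candidates were also counted around Ptpn6 on chromosome 6. Of 111 genes at or above the median level among the 100 measured genes on either side, 10 were candidates (9.01%), 7 graded and 3 recessive. Among all other placed genes 207 of 11248 were (1.84%), 123 graded, 64 recessive and 20 like me. The 7 were Phc1, Cops7a, Pianp, Cd27, Klrb1b, Clec2i and BC064078, and the last of these lay 69 genes away. The window was chosen after seeing the values, and this is a description of gene order in GRCm38.p6.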

How the data were processed

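Values from 10 Affymetrix arrays were used as the authors deposited them, as linear intensity per probe set; how they summarised, corrected and scaled them is not given in the sources used here. Of 45101 probe sets, 64 controls were left out. Intensities were taken as log2(intensity + 32) and quantile normalised in R 4.3.3. limma 3.58.1 (lmFit, eBayes) fitted the slope on mutant allele number with array set as a term (7 residual degrees of freedom), and a second fit with a he term (6) gave the departure. Adjustment was Benjamini-Hochberg over 45037 probe sets. Each gene was shown by its brightest probe set. Intervals for the he position are 95% Fieller intervals. The procedure was tested on simulated data. Named genes were Ptpn6, those with the smallest F test p per class and direction, the first 2 of each list by slope p, and 6 Treg genes. The gene lists, members and rule were chosen with earlier results of these data known. The settings tried are in the closing section. The number of arrays limits precision.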

Additional observations from a re-analysis of the deposited data

Results flagged for a closer look

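Dixon's ratio of the gap to the range was over its 95% critical value for 2 of 67 named probe sets in WT; chance flags about 1 in 20 groups. For Hmgn3, a nucleosome-binding protein, the ratio was 0.971: WT 4 stood at 9.64 (log2) against 9.13, 9.11 and 9.13. For Slc2a3, a glucose transporter, it was 0.944: WT 1 stood at 10.89 against 10.49, 10.47 and 10.50. In me, Slc2a3 stood at 10.93, 10.98 and 11.06, and its slope was 0.18 ± 0.06.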

How the results depend on the processing

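Slopes past the adjusted threshold numbered 1 with me 3 counted in set 2, 3 with array set as a random block, 2 at pseudocount 1, 3 with a filter on low values, 1 with a trend and robust prior, 2 with array weights, 3 at a threshold of 0.1 and 2 in the recessive coding; leaving out 1 array gave 0 to 1. Departure calls ran from 0 to 2, with 2 without me 2. The graded class held 12 genes without the set term, 64 with me 3 in set 2, 86 with the random block, 43 with the Gapdh ratio, 78 with the trend, 21 at p under 0.001, 40 with the F test (59 recessive) and 206 over all probe sets, and 88 to 151 on leaving out an array. The recessive class held 15 without the set term, 103 with sex, 8 with the Gapdh ratio, 14 with the cre control, 31 with no normalisation, 36 with median centring, 43 with the trend, 110 with array weights and 5 at p under 0.001, and 30 to 89 on leaving out an array. The cause was not tested.

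The brighter Ptpn6 probe set passed with me 3 in set 2 (-0.37), the random block (-0.35), pseudocount 1 (-0.36), the filter (-0.34), array weights (-0.36) and without me 3; leaving out an array gave -0.37 to -0.32. The dimmer one passed with the random block (-0.53), pseudocount 1 (-0.57), the filter (-0.53), the trend (-0.53), array weights (-0.55) and without WT 4; leaving out an array gave -0.57 to -0.48. Replicate numbers did not pair the arrays: same-numbered residuals correlated from -0.188 to 0.319, and 3 of 10 arrays matched best with their own number. With the replicate block, 1 slope was called, 292 genes were graded, and the dimmer Ptpn6 slope was -0.57.

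Of 65 named slopes other than Ptpn6's, 57 never reversed in the settings run. Those that did were Gpr107 (-0.0013 with no set term, -0.11 with me 3 in set 2), Sc5d (4.6e-04 with me 3 in set 2), Foxp3 (-0.0011 with me 3 in set 2, -0.064 with the cre control), Cd5 (-0.021), Il2ra (0.048) and Cd4 (-0.062) with the cre control, and Ikzf2 (-0.040 with no normalisation, -0.048 with median centring). Tnfrsf18, whose slope was -0.0030, gave 0.0029 with no set term, 0.010 with me 3 in set 2 and with array weights, 0.014 with the cre control and 0.022 in set 1 alone; leaving out an array gave -0.026 to 0.015.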
